A study of Sorghum bicolor with 16 samples.

Results

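These data describe 60 genes whose expression in developing sorghum endosperm was higher in a waxy mutant line than in wild type at each of 4 ages, taken from a table of 34129 genes. The samples were endosperms dissected from the seeds of field-grown BTx623, the sorghum reference line (WT), and of a waxy line derived from BTx623 by ethyl methane sulfonate (EMS) mutagenesis (*wxe*). The *wxe* plants were homozygous for a stop-gained allele of *GBSSI*, the gene of granule-bound starch synthase, and the line also carries other EMS mutations, so a difference between *wxe* and WT is here a difference between lines and cannot be assigned to the *GBSSI* allele. Sampling was on days 6, 11, 16 and 21 after anthesis (DPA), with 2 replicates for each line and age, each replicate being the pooled middle portions of 3 panicles, which makes 16 libraries in 8 groups. The values are FPKM as the authors deposited them, that is, fragment counts scaled to transcript length and library size. They also lay on a common median scale, with median ratios of each library to the geometric mean of all libraries of 0.997 to 1.03. A change with age is therefore relative to the typical gene and need not be a change in the share of mapped reads.

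The 60 genes were chosen by their values in all 16 libraries. For each gene and age, the difference d was the log2 of the *wxe* mean plus 1 minus the log2 of the WT mean plus 1. Genes with a mean of at least 2 FPKM over the 16 libraries were kept (13514 genes, after 4 neighbouring genes on chromosome 3 had been left out by name), and of these 905 (6.70%) had d above 0 at all 4 ages. Ranked by the smallest of their 4 differences, the first 60 are the members described here. As a counterpart, 888 of the 13514 genes (6.57%) had d below 0 at all 4 ages. Because the choice used the *wxe* to WT difference at every age, that difference is given below as a description. Where limma calls of it are counted, they rest on values the rule had used, and nothing is read from them. The course with age, averaged over the 2 lines, was not used in the ranking and was tested. The minimum mean did use the levels over age, so a low gene could pass it through 1 age. *Sobic.001G377100*, with a mean of 2.18 FPKM, had group means of 3.71 and 8.98 at 6 DPA and at most 1.35 later.

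In cereals the endosperm first divides and differentiates and then turns to grain filling, when starch and storage protein are laid down. Granule-bound starch synthase makes amylose, the mostly unbranched part of starch, and its loss gives the waxy endosperm, whose starch is nearly all amylopectin. The deposited table gives gene IDs without names, and no member is named in the study's text, so the members are described by their ID, their level and their course with age, and no function is given to any of them.

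The targeted gene *SbGBSSI* (*Sobic.010G022600*) had 847 and 752 FPKM in WT and 331 and 329 in *wxe* at 6 DPA, and 8807 and 8599 against 3919.7 and 4888 at 21 DPA, with both *wxe* libraries below both WT libraries at every age. The endosperm label was checked in the WT libraries alone, against *SbGBSSI* and the starch branching enzyme gene *SbSBEIIb* (*Sobic.004G163700*). Another 2 genes, of globulin storage proteins, were set beside them. *SbGBSSI* and *SbSBEIIb* were above 10 FPKM in 8 of 8 WT libraries each. The globulin genes were above 10 FPKM in 3 (*Sobic.001G144900*) and 6 (*Sobic.001G059800*) of the 8. Markers of other seed tissues were not run, so the check cannot show whether such tissue was carried over. The step between neighbouring low FPKM values of a gene is what 1 read is worth in a library. At 6 DPA the estimated reads behind 1 FPKM were 2.29 to 2.55 times those of the lowest of the 16 libraries. The multiples were 1.26 to 1.57 at 11 DPA and 1 to 1.26 at 16 and 21 DPA. They are not total depths, because the deposited values lay on a common median scale. Steps relative to WT replicate 1 at 6 DPA varied among genes, so the multiples are approximate. Low values at the later ages therefore rest on fewer reads than equal values at 6 DPA.

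Most of the members were highest at the youngest age. In bulk endosperm, fewer cells of a type and less RNA per cell cannot be told apart. In both lines 51 of the 60 had their highest mean at 6 DPA (85.0%), against 3228 of the 13514 genes (23.9%) and 519 of the 845 other genes with d above 0 at all ages (61.4%). At 6, 11, 16 and 21 DPA the median FPKM of the members was 12.8, 6.58, 3.68 and 2.93 in WT and 18.2, 10.3, 5.94 and 5.47 in *wxe*. Over the 13514 genes the WT medians stayed between 9.33 and 9.64, but the common median scale of the deposited values holds them nearly level. The members' decline is therefore relative to the typical gene. The genes below 0 at all ages had another course, with 353 of 888 (39.8%) highest at 21 DPA in both lines and 66 (7.43%) highest at 6 DPA in both.

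**Figure D1:**
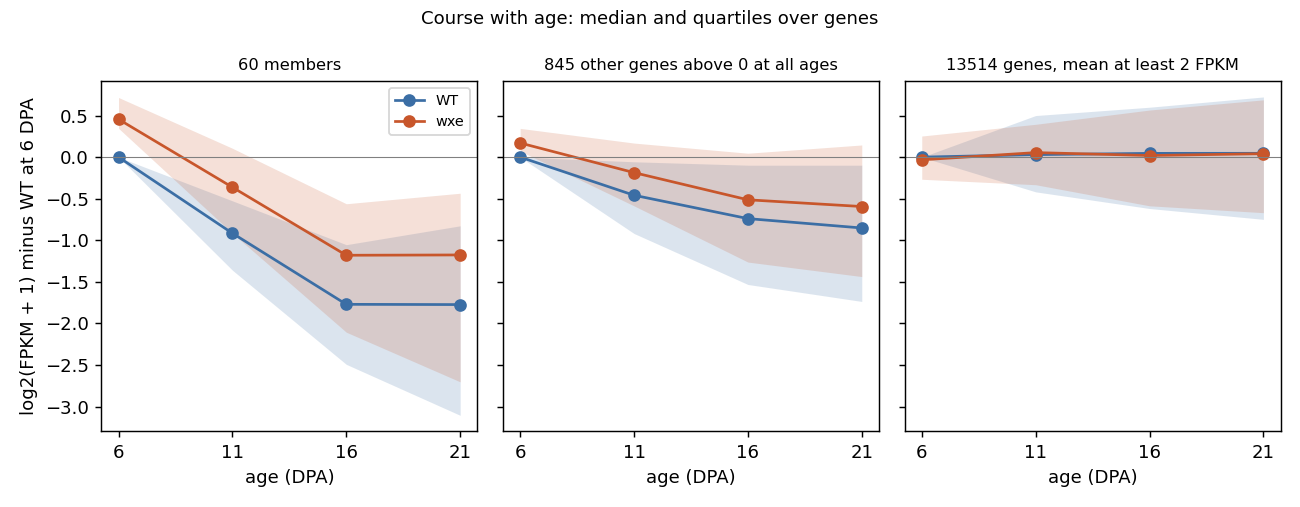
Level at each age relative to the WT level at 6 DPA, in log2(FPKM + 1) units, for the 60 members, the 845 other genes with d above 0 at all ages and the 13514 genes with a mean of at least 2 FPKM. Points are medians over genes and bands the quartiles, in WT and *wxe*. The median of the members in WT is -0.92 at 11 DPA and -1.77 at 21 DPA. That of the 13514 genes stays near 0, where the common median scale of the deposited values holds it.

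Steps between neighbouring ages were tested with limma on log2(FPKM + 1), the 2 lines averaged, over all genes with a mean above 1 FPKM at either age. A call needed a Benjamini-Hochberg adjusted p below 0.05 and a log2 change of at least 0.58. From 6 to 11 DPA, 42 of the 60 members fell and 1 rose, beside a background of 22.7% of 17015 tested genes called lower and 16.8% called higher. From 11 to 16 DPA, 32 fell and 2 rose, beside 19.1% and 12.2% of 15859 genes. From 16 to 21 DPA, 18 of the 57 members tested fell and 3 rose, beside 9.16% and 10.4% of 15212 genes, and the 3 members not tested were below the FPKM limit at both ages.

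Restricting the background to genes with a mean of at least 2 FPKM over the 16 libraries, which is the level the members had to reach, gave 17.9%, 19% and 9.58% called lower in the 3 steps. The median log2 change of the members was -0.90, -0.81 and -0.27. That of all tested genes was -0.03, -0.01 and 0.01, which the common median scale holds near 0. Among the 845 other genes with d above 0 at all ages, 41.2%, 32.7% and 13.7% of those tested were called lower. Over the 3 steps, 51 members were called lower at least once and higher never, beside 25.3% of the 13514 genes and 53.8% of the 845. A further 5 were called higher at some step (32.8% of the 13514 genes) and 4 had no call (42% of them), a step that was not tested counting as no call. The estimated reads behind 1 FPKM were also most at 6 DPA, and the part of this in these falls was not tested.

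The largest fall of each step was in another member. *Sobic.001G200800* fell by 7.08 on the log2 scale from 6 to 11 DPA (standard error 0.21, adjusted p = 5.31e-11 from limma). *Sobic.005G080800* fell by 4.69 from 11 to 16 DPA (standard error 0.21, adjusted p = 7.70e-09 from limma), and *Sobic.007G047000* fell by 3.12 from 16 to 21 DPA (standard error 0.40, adjusted p = 5.10e-05 from limma). The largest rises were smaller. *Sobic.001G232300* rose by 0.66 from 6 to 11 DPA (standard error 0.26, adjusted p = 0.0410 from limma), a call that was lost in 12 of 22 alternative fits, *Sobic.005G022500* rose by 0.99 from 11 to 16 DPA (standard error 0.13, adjusted p = 3.21e-05 from limma) and *Sobic.005G101400* by 0.98 from 16 to 21 DPA (standard error 0.11, adjusted p = 2.15e-05 from limma).

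A group of 12 members fell in all 3 steps, as did 1.32% of the 13514 genes and 4.14% of the 845 others above 0 at all ages. Of the 12, 7 are among the 24 ranked first, for which the value of every library is given in the order replicate 1 and replicate 2, with the age as the day after anthesis. In WT, the libraries of *Sobic.001G108100* stood at 74.4 and 85.7 FPKM on day 6, 47.4 and 50.98 on day 11, 22.2 and 23.4 on day 16, and 3.66 and 4.01 on day 21. The *wxe* libraries stood at 241 and 248 FPKM, then 79.5 and 94.8, 36.8 and 33.1, and finally 6.89 and 13.4. Each *wxe* pair lay above the WT pair of its age, and the ratio of the means was 3.06 at 6 DPA and 2.64 at 21 DPA.

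The WT pair of *Sobic.002G420900* stood at 1153 and 1171 FPKM on day 6, 549 and 674 on day 11, 31.8 and 18.4 on day 16, and 2.02 and 3.83 on day 21. In *wxe* they stood at 1311 and 1988 FPKM, then 791 and 937, 52.2 and 52.96, and finally 9.17 and 11.5. Its differences were 0.50, 0.50, 1.04 and 1.53 at 6, 11, 16 and 21 DPA, and no pair overlapped. Both WT libraries of *Sobic.005G058400* stood at 370.4 and 632 FPKM on day 6, 61.3 and 37.8 on day 11, 2.37 and 5.801 on day 16, and 0 and 0.455 on day 21. The *wxe* pair stood at 818 and 586 FPKM, then 116 and 100.2, 7.82 and 8.37, and finally 1.77 and 0.415. The lines overlapped at 6 DPA, where the higher library was replicate 2 in WT and replicate 1 in *wxe*, and again at 21 DPA, where 1 WT library was listed at 0.

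The WT libraries of *Sobic.001G200800* stood at 1009 and 961 FPKM on day 6, 8.43 and 9.81 on day 11, 0.915 and 2.55 on day 16, and 0 and 0.441 on day 21. The mutant libraries stood at 2689 and 4716 FPKM, then 17.1 and 18.7, 3.36 and 3.08, and finally 0.995 and 0.401. The 2 *wxe* libraries at 6 DPA differed from each other by more than either WT library differed from its pair, yet both lay above WT, and d was 1.91 there, the largest of all members at that age. At 21 DPA the values were under 1 FPKM in both lines and overlapped.

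In WT, the libraries of *Sobic.001G416800* stood at 247 and 234 FPKM on day 6, 88.2 and 97.3 on day 11, 15.9 and 23.04 on day 16, and 3.24 and 3.41 on day 21. Those of *wxe* stood at 308 and 356 FPKM, then 193 and 186, 34.5 and 30.9, and finally 7.26 and 12.3. Its difference was smallest at 6 DPA (0.46) and largest at 21 DPA (1.32), with no overlap at any age. The WT pair of *Sobic.003G319700* stood at 96.02 and 92.2 FPKM on day 6, 20.5 and 21.4 on day 11, 6.16 and 5.83 on day 16, and 3.23 and 3.29 on day 21. The *wxe* libraries stood at 111 and 134 FPKM, then 29.98 and 43.8, 9.49 and 11.4, and finally 6.46 and 8.22. Here too d was smallest at 6 DPA (0.38) and largest at 21 DPA (0.97), and the pairs did not overlap.

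Both WT libraries of *Sobic.004G048300* stood at 58.5 and 77.5 FPKM on day 6, 7.595 and 6.94 on day 11, 2.99 and 2.41 on day 16, and 0 and 0.305 on day 21. In *wxe* they stood at 91.2 and 108 FPKM, then 8.33 and 11.3, 5.36 and 7.41, and finally 0.196 and 1.38. The pairs lay apart at 6, 11 and 16 DPA and overlapped at 21 DPA, where 1 *wxe* library had 0.196 FPKM and the other 1.38. With a WT library listed at 0 at 21 DPA, no fold is given for that age.

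**Figure D2:**
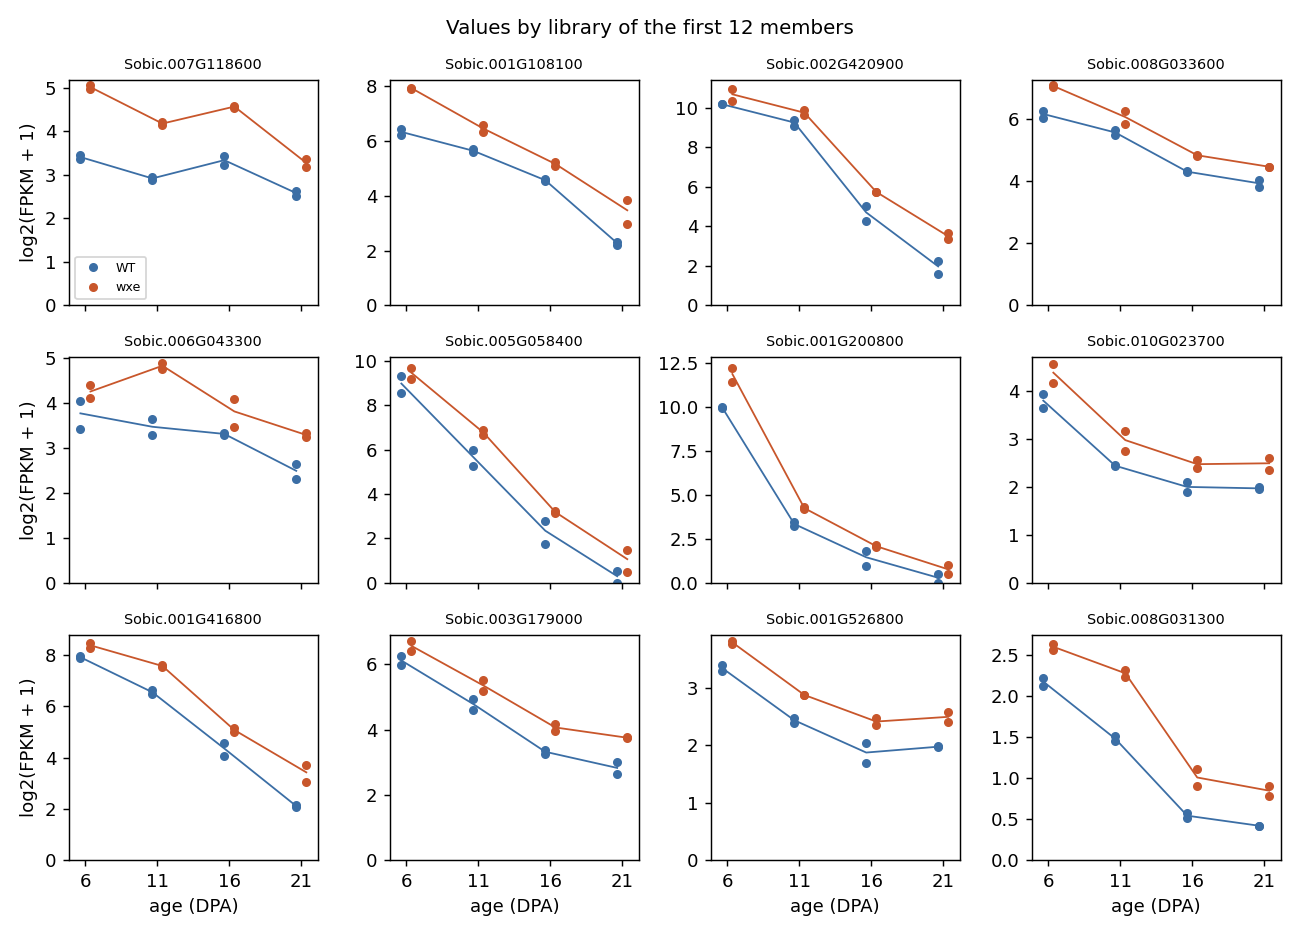
Values of the first 12 members in each of the 16 libraries, as log2(FPKM + 1) against age in DPA. Each point is 1 library and each line joins the values of the group means; in 10 of the 12 panels the *wxe* points lie above the WT points at all 4 ages, and *Sobic.005G058400* and *Sobic.001G200800* overlap at 21 DPA, the first also at 6 DPA.

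The other 5 members that fell in all 3 steps ranked between 26 and 57. For *Sobic.007G047000* the day 6 libraries read 688 and 983 FPKM in WT and 1291 and 821 in *wxe*, while on day 21 they read 2.82 and 2.01 in WT and 1.304 and 11.05 in *wxe*. *Sobic.004G055200* had 894 and 932 FPKM in WT and 1081 and 1240.2 in *wxe* on day 6, and 131 and 158 against 160.1 and 207 on day 21. For *Sobic.002G352401* the day 6 libraries read 438 and 495 FPKM in WT and 703 and 610.3 in *wxe*, while on day 21 they read 0.221 and 0.247 in WT and 0.717 and 1.57 in *wxe*. The first of these overlapped between the lines at 6, 16 and 21 DPA and was apart at 11 DPA alone, the next was apart at every age and stayed above 100 FPKM, and *Sobic.002G352401* overlapped at 16 DPA. *Sobic.003G019900* had 13.9 and 12.1 FPKM in WT and 15.7 and 21.2 in *wxe* on day 6, and 0.0381 and 0.122 against 0.314 and 0.369 on day 21. For *Sobic.007G149600* the day 6 libraries read 222 and 177 FPKM in WT and 226 and 256 in *wxe*, while on day 21 they read 10.8 and 11.7 in WT and 14.8 and 23.2 in *wxe*. *Sobic.003G019900* was under 1 FPKM in both lines at 21 DPA and overlapped at 11 DPA, while *Sobic.007G149600* was apart at every age, with its largest d of 1.24 at 11 DPA.

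*Sobic.005G080800* followed the same course but was not tested from 16 to 21 DPA, because its means were not above 1 FPKM at either age once both lines were averaged. The WT libraries of *Sobic.005G080800* stood at 578 and 1037 FPKM on day 6, 35.002 and 26.8 on day 11, 0 and 0.8796 on day 16, and 0 and 0 on day 21. The *wxe* pair stood at 1208 and 882 FPKM, then 76.2 and 67.02, 1.58 and 1.42, and finally 0.4697 and 0.882. The lines overlapped at 6 DPA, again with replicate 2 the higher in WT and replicate 1 in *wxe*, and were apart at the 3 later ages, although 3 of the 4 WT libraries of 16 and 21 DPA were listed at 0.

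A further 10 members fell in the first 2 steps and had no call in the last, as did 3.09% of the 13514 genes. In WT, the libraries of *Sobic.008G033600* stood at 64.9 and 75.6 FPKM on day 6, 48.8 and 43.6 on day 11, 18.6 and 18.8 on day 16, and 12.99 and 15.4 on day 21. The mutant libraries stood at 135 and 129 FPKM, then 55.4 and 75.7, 27.2 and 27.5, and finally 21.04 and 20.9. All 4 pairs were apart, with a ratio of the means of 1.88 at 6 DPA and 1.48 at 21 DPA. The WT pair of *Sobic.003G179000* stood at 75.2 and 61.997 FPKM on day 6, 23.2 and 29.9 on day 11, 8.64 and 9.38 on day 16, and 5.202 and 7.01 on day 21. Those of *wxe* stood at 84.1 and 104 FPKM, then 35.3 and 44.5, 14.4 and 17.1, and finally 12.6 and 12.4. The difference was 0.45 at 6 DPA and 0.92 at 21 DPA, without overlap.

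Both WT libraries of *Sobic.002G218500* stood at 13.4 and 11.4 FPKM on day 6, 5.57 and 5.76 on day 11, 2.21 and 1.78 on day 16, and 1.92 and 1.83 on day 21. The *wxe* libraries stood at 16.4 and 16.5 FPKM, then 7.86 and 7.31, 3.52 and 3.99, and finally 2.64 and 3.14. At 16 DPA its *wxe* mean was 1.88 times the WT mean, the largest ratio of the 4 ages, and no pair overlapped. The WT libraries of *Sobic.003G170200* stood at 17.6 and 16.6 FPKM on day 6, 6.19 and 5.02 on day 11, 2.77 and 1.803 on day 16, and 2.76 and 2.44 on day 21. In *wxe* they stood at 22.9 and 21.7 FPKM, then 9.47 and 6.898, 3.0998 and 3.38, and finally 4.51 and 4.001. Its differences of 0.36, 0.48, 0.37 and 0.55 varied little over age, and the pairs were apart, at 16 DPA narrowly.

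Another 6 members had the same 2 falls. *Sobic.010G001800* had 22.96 and 18.5 FPKM in WT and 32.5 and 42.5 in *wxe* on day 6, and 6.12 and 7.29 against 9.67 and 9.56 on day 21. For *Sobic.001G290600* the day 6 libraries read 8.29 and 8.37 FPKM in WT and 11.2 and 16.2 in *wxe*, while on day 21 they read 1.48 and 1.91 in WT and 3.12 and 2.97 in *wxe*. *Sobic.001G018200* had 15.6 and 16.03 FPKM in WT and 25.9 and 32.1 in *wxe* on day 6, and 2.64 and 3.55 against 3.81 and 4.43 on day 21. These 3 had no overlap at any age, and *Sobic.001G018200* had d of 1.14 at 11 DPA and 0.30 at 16 DPA. For *Sobic.001G216200* the day 6 libraries read 62.8 and 65.4 FPKM in WT and 95.9 and 105 in *wxe*, while on day 21 they read 12.7 and 15.6 in WT and 18.6 and 18.7 in *wxe*. *Sobic.001G247600* had 121 and 121 FPKM in WT and 128 and 165 in *wxe* on day 6, and 7.5995 and 7.37 against 12.05 and 12.3 on day 21. For *Sobic.003G367401* the day 6 libraries read 9.47 and 10.4 FPKM in WT and 8.31 and 15.9 in *wxe*, while on day 21 they read 0.433 and 0.242 in WT and 0.703 and 0.659 in *wxe*. *Sobic.001G216200* overlapped at 11 DPA, *Sobic.001G247600* at no age, and *Sobic.003G367401* at 6 and 16 DPA.

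In 15 members the only call was a fall from 6 to 11 DPA, which was so in 6.4% of the 13514 genes. In WT, the libraries of *Sobic.010G023700* stood at 14.3 and 11.5 FPKM on day 6, 4.47 and 4.38 on day 11, 3.27 and 2.72 on day 16, and 2.97 and 2.86 on day 21. The *wxe* pair stood at 16.9 and 22.7 FPKM, then 5.73 and 7.99, 4.23 and 4.87, and finally 4.14 and 5.11. All pairs were apart, by differences of 0.58, 0.53, 0.47 and 0.52. The WT pair of *Sobic.001G526800* stood at 9.51 and 8.76 FPKM on day 6, 4.25 and 4.57 on day 11, 2.24 and 3.09 on day 16, and 2.96 and 2.91 on day 21. The mutant libraries stood at 12.5 and 13.1 FPKM, then 6.32 and 6.35, 4.11 and 4.54, and finally 4.303 and 4.97. This member was equally even, with differences of 0.45, 0.44, 0.54 and 0.52 and no overlap.

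Both WT libraries of *Sobic.010G004900* stood at 5.45 and 6.13 FPKM on day 6, 2.91 and 2.1002 on day 11, 1.54 and 1.86 on day 16, and 1.502 and 0.915 on day 21. Those of *wxe* stood at 9.404 and 6.59 FPKM, then 3.36 and 4.81, 3.55 and 3.19, and finally 2.16 and 2.95. The lower *wxe* library at 6 DPA lay nearer to WT than to its own replicate, but the lines did not overlap at any age. The WT libraries of *Sobic.002G292400* stood at 3.04 and 3.604 FPKM on day 6, 0.987 and 1.08 on day 11, 0.807 and 0.966 on day 16, and 0.552 and 0.605 on day 21. The *wxe* libraries stood at 5.33 and 4.06 FPKM, then 1.92 and 2.23, 2.43 and 1.41, and finally 1.61 and 2.06. It was the least abundant of the members, at a mean of 2.04 FPKM over the 16 libraries, and its ratio of means was 1.41 at 6 DPA and 3.17 at 21 DPA, without overlap.

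The other 11 of these 15 lay lower in rank. *Sobic.004G179400* had 3.94 and 3.96 FPKM in WT and 5.37 and 5.88 in *wxe* on day 6, and 1.47 and 1.095 against 1.95 and 1.76 on day 21. For *Sobic.006G262300* the day 6 libraries read 27.4 and 21.4 FPKM in WT and 30.1 and 31.1 in *wxe*, while on day 21 they read 12.9 and 14.9 in WT and 16.1 and 21.5 in *wxe*. *Sobic.003G308800* had 2.74 and 2.68 FPKM in WT and 5.26 and 5.33 in *wxe* on day 6, and 1.09 and 0.821 against 1.69 and 1.16 on day 21. None of them overlapped at any age. For *Sobic.006G224400* the day 6 libraries read 2.92 and 3.49 FPKM in WT and 7.99 and 8.68 in *wxe*, while on day 21 they read 1.58 and 1.19 in WT and 2.82 and 3.49 in *wxe*. *Sobic.006G084400* had 12.5 and 11.5 FPKM in WT and 16.2 and 14.7 in *wxe* on day 6, and 3.505 and 3.81 against 3.78 and 5.96 on day 21. For *Sobic.002G065000* the day 6 libraries read 37.9 and 33.9 FPKM in WT and 39.5 and 48.2 in *wxe*, while on day 21 they read 11.8 and 12.1 in WT and 16.8 and 16.7 in *wxe*. Among these, *Sobic.006G224400* had the largest ratio at 6 DPA (2.599), and *Sobic.006G084400* overlapped at 21 DPA. *Sobic.003G241500* had 141 and 158 FPKM in WT and 197 and 189 in *wxe* on day 6, and 43.5 and 47.7 against 56.3 and 54.8 on day 21. For *Sobic.001G069700* the day 6 libraries read 29.8 and 33.5 FPKM in WT and 38.05 and 42.5 in *wxe*, while on day 21 they read 2.902 and 3.36 in WT and 4.35 and 3.65 in *wxe*. *Sobic.004G241400* had 9.84 and 9.29 FPKM in WT and 17.4 and 16.4 in *wxe* on day 6, and 6.23 and 5.26 against 9.06 and 9.25 on day 21. All 3 were apart at every age, and *Sobic.003G241500* was the most abundant of the 15. For *Sobic.001G422700* the day 6 libraries read 6.49 and 6.15 FPKM in WT and 8.06 and 8.604 in *wxe*, while on day 21 they read 0.861 and 0.463 in WT and 1.47 and 0.959 in *wxe*. *Sobic.002G141900* had 2.63 and 2.56 FPKM in WT and 3.22 and 3.39 in *wxe* on day 6, and 2.07 and 1.29 against 3.08 and 3.38 on day 21. These were the members ranked 58 and 60, and *Sobic.001G422700* overlapped at 16 DPA.

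For 5 members the only call was a fall from 11 to 16 DPA, beside 6.18% of the 13514 genes. In WT, the libraries of *Sobic.008G064700* stood at 13.2 and 10.9 FPKM on day 6, 8.598 and 7.93 on day 11, 4.75 and 4.21 on day 16, and 6.697 and 6.84 on day 21. In *wxe* they stood at 13.7 and 21.3 FPKM, then 10.8 and 12.6, 5.33 and 7.07, and finally 9.51 and 11.1. The pairs were apart at every age, at 6 DPA narrowly, since *wxe* replicate 1 lay close to the higher WT library there. The WT pair of *Sobic.006G255900* stood at 14.4 and 11.3 FPKM on day 6, 8.89 and 9.82 on day 11, 3.14 and 2.85 on day 16, and 1.96 and 2.79 on day 21. The *wxe* pair stood at 15.9 and 18.01 FPKM, then 13.03 and 14.01, 4.98 and 5.45, and finally 5.54 and 6.58. Its difference was 0.37 at 6 DPA and 1.07 at 21 DPA, without overlap. For *Sobic.004G106900* the day 6 libraries read 45.3 and 40.3 FPKM in WT and 46.6 and 61.8 in *wxe*, while on day 21 they read 13.9 and 15.2 in WT and 20.3 and 24.02 in *wxe*. *Sobic.007G194300* had 12.6 and 14.9 FPKM in WT and 17.6 and 17.3 in *wxe* on day 6, and 4.59 and 4.58 against 8.24 and 7.23 on day 21. For *Sobic.003G317700* the day 6 libraries read 13.7 and 10.5 FPKM in WT and 9.96 and 26.4 in *wxe*, while on day 21 they read 2.48 and 2.88 in WT and 5.21 and 5.53 in *wxe*. In the last of these 1 *wxe* library at 6 DPA lay below both WT libraries and the other above them, and the lines overlapped at 11 DPA as well.

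The member ranked first, *Sobic.007G118600*, fell from 6 to 11 DPA and again from 16 to 21 DPA. Both WT libraries of *Sobic.007G118600* stood at 9.85 and 9.33 FPKM on day 6, 6.35 and 6.72 on day 11, 8.34 and 9.81 on day 16, and 4.73 and 5.19 on day 21. The mutant libraries stood at 30.2 and 32.2 FPKM, then 17.4 and 16.7, 22.3 and 23.01, and finally 8.02 and 9.26. The ratios of its *wxe* to its WT means were 3.25, 2.61, 2.49 and 1.74. *Sobic.010G087600* had 74.7 and 88.4 FPKM in WT and 124 and 176 in *wxe* on day 6, and 0.524 and 0.8502 against 1.003 and 1.11 on day 21. This gene had the same pair of falls and no overlap between the lines.

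The WT libraries of *Sobic.006G043300* stood at 9.74 and 15.6 FPKM on day 6, 8.73 and 11.5 on day 11, 9.05 and 8.85 on day 16, and 3.99 and 5.27 on day 21. Those of *wxe* stood at 20.1 and 16.2 FPKM, then 26.2 and 28.8, 16.1 and 10.1, and finally 8.47 and 9.11. This member fell in the last 2 steps and peaked at 6 DPA in WT and at 11 DPA in *wxe*, with d of 1.36 at 11 DPA and pairs apart at every age. For *Sobic.008G052000* the day 6 libraries read 8.27 and 7.15 FPKM in WT and 11.3 and 19.7 in *wxe*, while on day 21 they read 0.0562 and 0.0599 in WT and 0.375 and 0.326 in *wxe*. It fell in the same 2 steps and was apart at every age. *Sobic.002G092400* had 2.16 and 1.71 FPKM in WT and 5.69 and 5.22 in *wxe* on day 6, and 0.539 and 0.788 against 0.557 and 1.71 on day 21. For *Sobic.009G056900* the day 6 libraries read 4.37 and 3.84 FPKM in WT and 4.44 and 6.13 in *wxe*, while on day 21 they read 2.25 and 1.96 in WT and 3.57 and 4.51 in *wxe*. Both fell from 16 to 21 DPA alone, and the first had the largest d of all members at 11 DPA, 1.65, while it overlapped at 21 DPA.

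In WT, the libraries of *Sobic.008G031300* stood at 3.67 and 3.37 FPKM on day 6, 1.85 and 1.73 on day 11, 0.488 and 0.425 on day 16, and 0.3398 and 0.336 on day 21. The *wxe* libraries stood at 5.22 and 4.898 FPKM, then 3.98 and 3.71, 0.867 and 1.15, and finally 0.871 and 0.726. Low throughout, it fell from 11 to 16 DPA and was not tested after that, and its pairs were apart at every age. *Sobic.001G377100* had 3.98 and 3.45 FPKM in WT and 7.52 and 10.4 in *wxe* on day 6, and 0.281 and 0.311 against 0.699 and 0.526 on day 21. This member fell from 6 to 11 DPA and was under 1 FPKM in both lines at 21 DPA, with the last step not tested and again no overlap.

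The 5 members called higher at some step departed from this course. The WT pair of *Sobic.005G022500* stood at 23.98 and 35.9 FPKM on day 6, 6.14 and 7.13 on day 11, 15.7 and 14.9 on day 16, and 27.9 and 22.7 on day 21. In *wxe* they stood at 63.2 and 87.5 FPKM, then 11.4 and 10.3, 20.98 and 20.5, and finally 40.7 and 36.7. It fell from 6 to 11 DPA and then rose in the next 2 steps, and its differences were 1.30, 0.63, 0.42 and 0.59, with no overlap. Both WT libraries of *Sobic.005G101400* stood at 4.85 and 5.52 FPKM on day 6, 3.43 and 3.74 on day 11, 2.06 and 2.25 on day 16, and 5.29 and 4.81 on day 21. The *wxe* pair stood at 8.299 and 8.199 FPKM, then 6.09 and 4.06, 2.71 and 3.75, and finally 7.54 and 7.35. This gene was lowest at 16 DPA in both lines and rose to 21 DPA, with differences of 0.58, 0.40, 0.42 and 0.48 and no overlap.

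For *Sobic.001G232300* the day 6 libraries read 0.949 and 1.18 FPKM in WT and 1.99 and 1.097 in *wxe*, while on day 21 they read 1.65 and 3.27 in WT and 9.49 and 8.58 in *wxe*. *Sobic.001G232300* had d of 0.30 at 6 DPA, where the lines overlapped, and of 1.55, 1.44 and 1.54 later, where they were apart. The 2 WT libraries at 16 DPA, at 0.644 and 3.15 FPKM, lay far from each other. *Sobic.003G160200* had 2.01 and 1.58 FPKM in WT and 3.55 and 5.95 in *wxe* on day 6, and 6.59 and 6.12 against 8.08 and 8.09 on day 21. For *Sobic.002G277100* the day 6 libraries read 11.2 and 11.0004 FPKM in WT and 17.1 and 17.2 in *wxe*, while on day 21 they read 5.96 and 6.97 in WT and 9.74 and 8.53 in *wxe*. The first of this pair rose from 11 to 16 DPA, the other fell in that step and rose in the next, and neither overlapped at any age.

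In 4 members no step was called. The WT libraries of *Sobic.002G152600* stood at 4.94 and 5.66 FPKM on day 6, 3.16 and 3.53 on day 11, 3.47 and 4.05 on day 16, and 3.296 and 3.55 on day 21. The mutant libraries stood at 6.91 and 8.03 FPKM, then 5.45 and 5.83, 5.31 and 5.35, and finally 6.08 and 5.35. The pairs were apart at every age and the differences were 0.43, 0.61, 0.41 and 0.60. *Sobic.009G043500* had 7.08 and 7.18 FPKM in WT and 10.1 and 8.54 in *wxe* on day 6, and 3.13 and 2.59 against 4.26 and 3.36 on day 21. For *Sobic.003G439800* the day 6 libraries read 6.39 and 6.47 FPKM in WT and 8.04 and 8.56 in *wxe*, while on day 21 they read 6.76 and 7.72 in WT and 10.7 and 8.43 in *wxe*. *Sobic.006G068350* had 1.32 and 1.401 FPKM in WT and 3.13 and 2.55 in *wxe* on day 6, and 4.19 and 3.31 against 6.81 and 4.34 on day 21. Of these, *Sobic.003G439800* stayed between 5.56 and 10.7 FPKM in all libraries, and *Sobic.006G068350* overlapped at 16 DPA.

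The size of the difference between the lines was moderate in most members. At 6, 11, 16 and 21 DPA the median d of the 60 was 0.46, 0.55, 0.45 and 0.54. Over the 13514 genes the medians were -0.03, 0.02, -0.01 and 0.01, which the common median scale holds near 0. Only *Sobic.007G118600* and *Sobic.001G108100* had d of at least 0.58 at all 4 ages, on a scale that adds 1 FPKM to each mean and so understates the ratio of low genes. The largest of the 4 differences was at 6 DPA in 20 members, at 11 DPA in 17, at 16 DPA in 7 and at 21 DPA in 16.

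**Figure D3:**
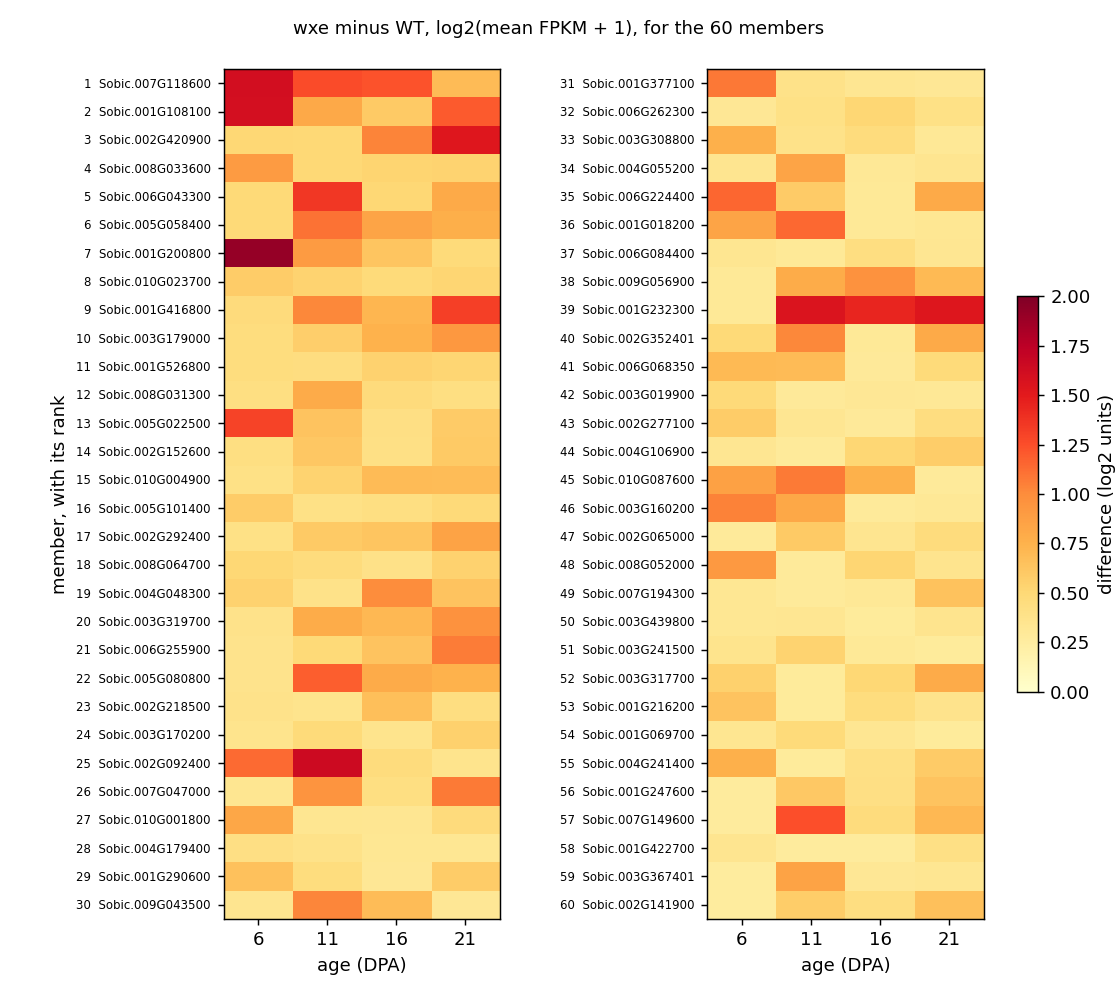
Difference between *wxe* and WT in log2(mean FPKM + 1) for each member (rows, with rank) and age in DPA (columns), on a scale from 0 to 2. Every cell is at 0.26 or above, 20 members have their darkest cell at 6 DPA and 16 at 21 DPA, and the first 2 rows are the only ones of at least 0.58 throughout.

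Both *wxe* libraries lay above both WT libraries in 54, 57, 55 and 54 of the 60 members at the 4 ages in order, where 34.9%, 33.6%, 24.5% and 27.8% of all tested genes did. The rule itself favours such genes, so nothing is read from these counts. This held at all 4 ages in 45 members, at 3 ages in 11, at 2 ages in 3 and at 1 age in *Sobic.007G047000*, and 1.18% of the 13518 genes with a mean of at least 2 FPKM, the 4 left out by name included, had it at all 4 ages.

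By the limma fit, 20 members were called higher in *wxe* at 6 DPA (14.4% of 16967 genes), 26 at 11 DPA (5.78% of 15808 genes), 4 at 16 DPA (0.674% of 14990 genes) and 19 of 52 tested at 21 DPA (3.58% of 14966 genes). No member was called lower, where 5.15%, 12.1%, 0.314% and 2.93% of these genes were. All of these counts describe values that the rule had already used.

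The counts at single ages moved with single libraries, and the shares over all genes tested in the same fits moved too, not always the same way. Without *wxe* replicate 2 at 6 DPA, 13 members and 9.46% of all tested genes were called higher at 6 DPA. Without WT replicate 1 at 11 DPA, 17 members and 4.54% of genes were called at 11 DPA. At 16 DPA, 2 members were called without WT replicate 1 (0.366% of genes), WT replicate 2 (0.14%) or *wxe* replicate 1 (0.272%), and 1 without *wxe* replicate 2 (0.127%). Leaving out either *wxe* library of 21 DPA gave 7 calls at 16 DPA (0.607% of genes). At 21 DPA, 10 members were called without WT replicate 1 (2.25% of genes), 12 without WT replicate 2 (3.72%) and 9 without *wxe* replicate 2 (2.06%).

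Low values set a limit on several of the later differences. In 17 members at least 1 group mean was below 1 FPKM, and in 15 the WT mean at 21 DPA was. Of the 60, 4 had a WT library listed at 0 (*Sobic.005G058400*, *Sobic.001G200800*, *Sobic.004G048300* and *Sobic.005G080800*) and none was listed at 0 in all 8 WT libraries. On the log2(FPKM + 1) scale the differences of such low genes are understated. The part of few reads in the 21 DPA differences of these 4 members was not tested.

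Replicates of the same group lay slightly farther apart in the members than in other genes. The median absolute difference between the 2 libraries of a group was 0.13 to 0.22 on the log2 scale for the members and 0.10 to 0.22 for the 13514 genes, and it was larger for the members in each of the 8 groups. The widest gap was that of *Sobic.007G047000* in *wxe* at 21 DPA, at 2.39 log2 units (1.30 and 11.0 FPKM), and the next that of *Sobic.001G232300* in WT at 16 DPA, at 1.33. In *Sobic.003G317700* the *wxe* libraries at 6 DPA differed by 1.32 log2 units.

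The *wxe* level of a member at one age was set beside the WT levels of that age and of the age before. At 11 DPA, 56 members were lower in WT than at 6 DPA, and in 40 of them the *wxe* mean lay between the WT means of 11 and 6 DPA, while in 16 it was at or above the WT mean of 6 DPA. At 16 DPA the *wxe* mean lay between the WT means of 16 and 11 DPA in 39 of 48 such members, and at 21 DPA between those of 21 and 16 DPA in 21 of 41. For each such member, d was taken as a share of its WT decline over the preceding step. The median share was 54.4% at 11 DPA (range 12.6% to 8735%) and 44.9% at 16 DPA (14% to 580%). At 21 DPA it was 97.1% (12.1% to 1726%). As d was used in the choice of members, these shares are a description.

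Members were spread over all 10 chromosomes, as read from their IDs. Chromosome 1 held 12 of them (20.0%, against 18.7% of the 13514 genes), chromosome 3 held 10 (16.7% against 14.3%), chromosome 2 held 9 (15.0% against 12.9%) and chromosome 9 held 2 (3.33% against 8.40%). No member lay within 5 table rows of another in the order of the IDs, and the nearest pair, *Sobic.003G317700* and *Sobic.003G319700*, was 23 rows apart. *Sobic.010G023700* lay 14 rows from *SbGBSSI*, and the next member on chromosome 10, *Sobic.010G004900*, 176 rows from it. Of the 111 genes with a mean of at least 2 FPKM that lay within 2 rows of a member, 12 (10.8%) also had d above 0 at all 4 ages, against 6.70% of all such genes.

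The 4 genes left out by name, *Sobic.003G033000*, *Sobic.003G033100*, *Sobic.003G033200* and *Sobic.003G033700*, had smallest differences of 0.68, 0.54, 0.51 and 0.64 and would have ranked after *Sobic.007G118600* and before *Sobic.002G420900*. Both their *wxe* libraries were above both WT libraries at every age. The member nearest to them, *Sobic.003G019900*, lay 136 rows away.

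The mean levels of the members over the 16 libraries ran from 2.04 to 590.1 FPKM, the middle value being 9.43, against 10.3 over the 13514 genes, whose highest mean was 55012 FPKM. *Sobic.001G200800*, *Sobic.004G055200* and *Sobic.002G420900* had the highest means, at 590.1, 552 and 547 FPKM.

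**Figure D4:**
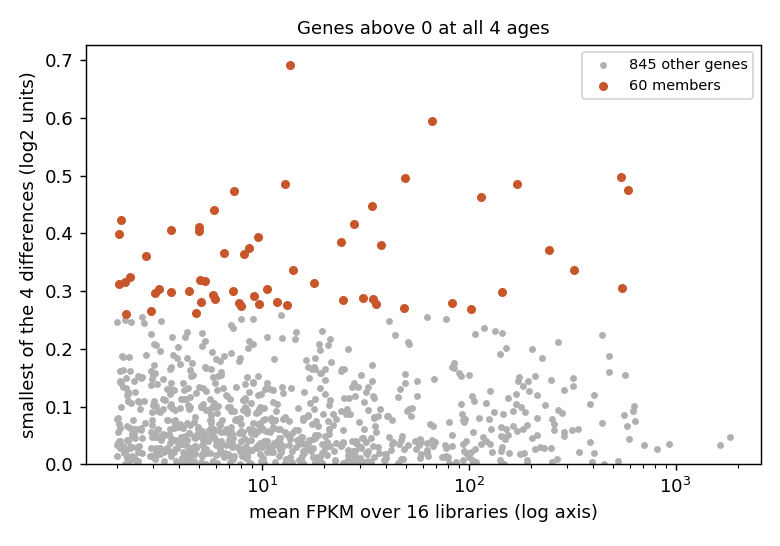
Smallest of the 4 differences (log2 units) against the mean FPKM over 16 libraries (log axis) for the 905 genes with d above 0 at all ages. The 60 members, in orange, lie at 0.26 and above, *Sobic.007G118600* is highest at 0.69, and no gap separates the lowest members from the 845 other genes.

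The rank limit fell in a continuous range. Just inside it, *Sobic.001G422700*, *Sobic.003G367401* and *Sobic.002G141900* had smallest differences of 0.266, 0.262 and 0.260, and just outside it *Sobic.008G039900*, *Sobic.009G134450* and *Sobic.008G007000* had 0.259, 0.256 and 0.255. Without *wxe* replicate 2 at 6 DPA that of *Sobic.003G367401* was -0.23. By group means, 31 members declined at every step in WT, 32 in *wxe* and 28 in both (46.7%), against 215 of the 845 other genes above 0 at all ages (25.4%) and 992 of the 13514 genes (7.34%).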

How the data were processed

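RNA from dissected endosperm of 2 lines at 4 ages was sequenced by the authors as paired-end libraries. They mapped the reads with STAR onto version 3 of the sorghum genome and deposited Cufflinks FPKM for each gene in each of the 16 libraries. Tool versions, the annotation release and the treatment of reads with several alignments are not given in the sources used here. The median ratio of a library to the geometric mean of all libraries was 0.997 to 1.03, so the deposited values already lay on a common median scale. No read counts were used, so total depth is not known, and the reads behind 1 FPKM are known only relative to the lowest library.

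The rule was applied to the deposited values with Python 3.11.15 and pandas 2.3.3. The limma fit (version 3.58.1, R 4.3.3) was on log2(FPKM + 1), with 1 mean for each of the 8 groups, a trended prior variance and 8 residual degrees of freedom. A gene was tested, two-sided, where either side of the contrast averaged above 1 FPKM. For a single gene, 2 libraries against 2 allow no small exact p, so calls rest on the spread shared across genes and groups. The pipeline was tested on simulated data.

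The members, lists and tests were chosen with earlier results of these data known. Only the 24 members ranked first are given with the values of every library. The plan also named members near one another, at the rank limit, at 0 in all WT libraries, or with the largest change in an age step. No member was near another or at 0 in all WT libraries. Members outside the first 24, those at the rank limit included, are given mainly by their values at the first and last age. The planned lists by product name and the marker lists of oleosin and chlorophyll a-b binding protein genes were not run, because the reference table shares no gene ID with the deposited table. A further planned endosperm marker is not reported because its role was not stated in the sources used here. Alternatives were a pseudocount of 0.1, other filters, median-ratio scaling, quantile normalization, a replicate block and each library left out in turn, and for the rule also other minimum means, means of log2 values and each replicate number alone. Whether equal replicate numbers mark a shared origin is not stated, and they were not taken as pairs.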

Additional observations from a re-analysis of the deposited data

How the results depend on the processing

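The list depends on which libraries are used. The rule applied to the replicate 1 libraries alone gave 25 of the 60 members again, and to the replicate 2 libraries alone 27. With 1 library left out it gave 44 to 55, and under the other alternatives 44 (a pseudocount of 0.1, and a minimum mean of 5 FPKM) to 59. With replicate 2 alone the smallest difference was -0.11 for *Sobic.005G058400*, -0.041 for *Sobic.001G200800* and -0.23 for *Sobic.005G080800*. That of *Sobic.003G367401* was -0.17 with replicate 1 alone and, with each library left out in turn, -0.23 (without *wxe* replicate 2 at 6 DPA) to 0.32. For *Sobic.009G134450*, just outside the rank limit, it was -0.38 with replicate 1 alone and -0.21 (without *wxe* replicate 2 at 21 DPA) to 0.29 with each left out.

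With each library left out in turn, members called higher in *wxe* numbered 13 to 24 at 6 DPA, 17 to 27 at 11 DPA, 1 to 7 at 16 DPA and 9 to 22 at 21 DPA. Members called lower between ages numbered 41 to 44, 31 to 34 and 17 to 19 in the 3 steps, and those called higher 0 to 1, 2 to 3 and 3 to 5, the 5 without either WT library of 16 DPA or without *wxe* replicate 1 at 21 DPA. The single rise from 6 to 11 DPA was lost (0 members) with a pseudocount of 0.1 and with no filter on low values. With a filter at a mean above 5 FPKM no member was called higher either, but *Sobic.001G232300* was not tested there. A pseudocount of 0.1 gave 6 rises from 16 to 21 DPA. The replicate block gave 8 members called higher in *wxe* at 16 DPA in place of 4 and moved no other count by over 1.5 times. The replicates share only a number, and the deviations of same-numbered libraries of the 2 lines correlated over genes at -0.33, 0.25, -0.02 and 0.12 at 6, 11, 16 and 21 DPA. A crossed pairing at 6 DPA, added after the data were seen, gave 20, 27, 4 and 18 calls at the 4 ages. Single-gene values under alternatives covered the 24 members ranked first, the genes just inside and just outside the rank limit, and the largest change of each age step. Of these 857 values, 784 stayed within the spread or kept their call, 54 moved beyond it, 12 lost a call and 7 changed sign. Of the 7, 2 were of *Sobic.009G134450*, which is not a member.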
